A study of Rattus norvegicus with 6 samples.

Results

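The 10 genes described here encode feedback inhibitors of MAP kinase signalling: the dual-specificity phosphatases Dusp1, Dusp4, Dusp5 and Dusp6, the Sprouty proteins Spry1, Spry2 and Spry4, the Spred proteins Spred1 and Spred2, and the receptor inhibitor Errfi1. They were taken by gene symbol from count tables of 31038 genes, and all 10 symbols were found. Of the 10, 9 passed the filter on low counts and were tested, out of 12724 genes tested in all. Dusp4 did not pass the filter. Cells of the first group, with 3 libraries, had received an siRNA against eIF3m, and those of the second, also with 3 libraries, a control siRNA. eIF3m is a subunit of translation initiation factor 3, which helps to load the small ribosomal subunit onto mRNA.

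Growth factor receptors switch on Ras, which activates the kinase chain Raf, MEK and ERK, and active ERK enters the nucleus and induces early genes. Several of the genes induced in this way encode proteins that shut the pathway down again, so their transcripts are widely used as a readout of ERK output. They act at different steps. Errfi1 binds the kinase domain of the EGF receptor family, Sprouty proteins act between the receptor and Raf, Spred proteins bring neurofibromin to Ras, and the phosphatases remove the activating phosphates from the kinases themselves. In heart muscle the same pathway takes part in growth and in the response to stress.

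The labels call the cells myocardial and give their type as NRVM, from rat embryo heart muscle kept in serum-containing medium. The same label text, present in both groups, holds a passage on dexamethasone, isobutylmethylxanthine and insulin, and does not say whether these cells received them; Dusp1 is a known glucocorticoid-induced gene. The labels do not say that replicates were separate cultures, so p-values measure the spread between these libraries, which may be technical. Most of the defining cardiomyocyte transcripts listed were close to absent. Myh6, Myh7, Tnni3, Nppa and Ryr2 stayed at or below 2.21 CPM (a count scaled to the total of its library) in all 6 libraries. Actc1 stayed at or below 2.42 CPM. The exceptions were Tnnt2, at 142 to 158 CPM with eIF3m siRNA and 359 to 376 CPM with control siRNA, and Ttn. Ttn was at 6.72 to 11.9 CPM with eIF3m siRNA and 20.1 to 28.6 CPM with control siRNA. Some skeletal myoblast markers were present in every library. Myod1 was at 13.3 to 19.4 CPM with eIF3m siRNA and 13.2 to 17.8 CPM with control siRNA. Myog was at 4.77 to 6.18 CPM and 16.8 to 22.1 CPM, and Tnnt3 at 37.5 to 41.5 CPM and 56.7 to 59.9 CPM, in the same order. Myf5, Myf6 and Chrna1 stayed at or below 1.20 CPM. Total counts were 10061575, 2156186 and 7901395 in eIF3m siRNA replicates 1, 2 and 3, against 7437285 to 8603602 in the control siRNA libraries. Eif3m itself stood at 91.7, 83.9 and 87.3 CPM with eIF3m siRNA, against 137, 136 and 141 CPM with control siRNA, a log2 fold change of -0.64 ± 0.05 (SE; edgeR quasi-likelihood test, adjusted p = 1.41e-07). Replicate 1 of the eIF3m siRNA group stood apart in blood and endothelial transcripts. The summed level of 4 red cell markers was 5210, 192 and 42.9 CPM in eIF3m siRNA replicates 1, 2 and 3, against 26.7 to 62.2 CPM with control siRNA, and that of 8 endothelial markers was 171, 18.5 and 11.2 CPM in eIF3m siRNA replicates 1, 2 and 3, against 7.74 to 13.9 CPM with control siRNA.

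The start regions of 4 members are shown, because binding sites for signal-regulated factors near the start are a known feature of such early response genes. The sequences are the 250 bases before the RefSeq start, 5′ to 3′, from the GRCr8 assembly, whereas the submitters' processing notes name rn6. Capitals mark matches to the motifs searched on both strands, which were the cyclic AMP response element TGACGTCA, its shorter core TGACG, the AP-1 site TGANTCA, the Ets site CCGGAA and the CArG box bound by serum response factor. Each full cyclic AMP response element also holds the core on both strands. Dusp1 is shown as the member that fell, Errfi1 and Dusp6 as members that rose, and Dusp5 as one that was not called.
Dusp1 (GRCr8, chr10:17184603-17184852, + strand): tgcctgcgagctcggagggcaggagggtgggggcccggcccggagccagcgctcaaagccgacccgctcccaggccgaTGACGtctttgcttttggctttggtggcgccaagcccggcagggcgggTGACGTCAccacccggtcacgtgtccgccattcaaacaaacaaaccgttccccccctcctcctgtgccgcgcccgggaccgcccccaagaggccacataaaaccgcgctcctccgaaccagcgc
Errfi1 (GRCr8, chr5:166606591-166606840, + strand): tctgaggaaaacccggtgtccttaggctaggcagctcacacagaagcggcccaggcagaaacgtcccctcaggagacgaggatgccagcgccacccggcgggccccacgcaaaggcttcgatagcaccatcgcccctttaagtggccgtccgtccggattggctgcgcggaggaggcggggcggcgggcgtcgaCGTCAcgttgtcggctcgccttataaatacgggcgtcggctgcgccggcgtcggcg
Dusp6 (GRCr8, chr7:35979354-35979603, + strand): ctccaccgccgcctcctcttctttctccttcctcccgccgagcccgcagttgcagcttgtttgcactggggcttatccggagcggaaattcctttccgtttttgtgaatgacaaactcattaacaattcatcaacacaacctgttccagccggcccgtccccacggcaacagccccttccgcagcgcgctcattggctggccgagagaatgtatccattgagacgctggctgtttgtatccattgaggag
Dusp5 (GRCr8, chr1:262543524-262543773, + strand): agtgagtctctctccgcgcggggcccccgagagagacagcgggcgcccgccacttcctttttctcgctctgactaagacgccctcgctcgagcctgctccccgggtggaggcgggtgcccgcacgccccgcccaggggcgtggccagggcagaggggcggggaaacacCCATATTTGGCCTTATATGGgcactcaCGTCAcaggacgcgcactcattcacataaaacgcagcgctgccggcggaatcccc

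Dusp1 held a full TGACGTCA at 124 to 117 bases before its start and a further core at 172 to 168. Over the 33469 RefSeq start regions of the same length, 1.59% held the full element and 18.2% the core. Errfi1, which moved the other way, held 1 core at 56 to 52 bases before the start. Dusp5 held a pair of adjoining CArG boxes, CCATATTTGG at 82 to 73 and CCTTATATGG at 72 to 63, a motif present in 1.5% of start regions. It also held a core at 55 to 51. Dusp6 held none of the motifs in this window, and neither did Spry1 or Spred1. Among the other members, the first of the pair of Spry2 start regions held an Ets site and a core, Spry4 an Ets site and Spred2 a core. Ets sites were found in 12.6% and AP-1 sites in 6.34% of all start regions, and no member held an AP-1 site. The members with a core thus included Dusp1, which fell, Errfi1 and Spry2, which rose, and Dusp5 and Spred2, which were not called. Start regions were found for 9 of the 10 members.

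Across the tested members, 5 were higher and 1 was lower with eIF3m siRNA at an adjusted p under 0.05, and 3 were not called. Over all genes tested, 38.7% were called, 17.4% as higher and 21.2% as lower. The members' median log2 fold change was 0.29, beside 0.01 over all genes tested, and the median size regardless of sign was 0.32, beside 0.24. Levels of the 2 groups did not overlap for 6 of the 9 tested members, beside 48.6% of all genes tested. The members were chosen with earlier results of these libraries known, so the counts describe them and carry no test of the list.

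**Figure D1:**
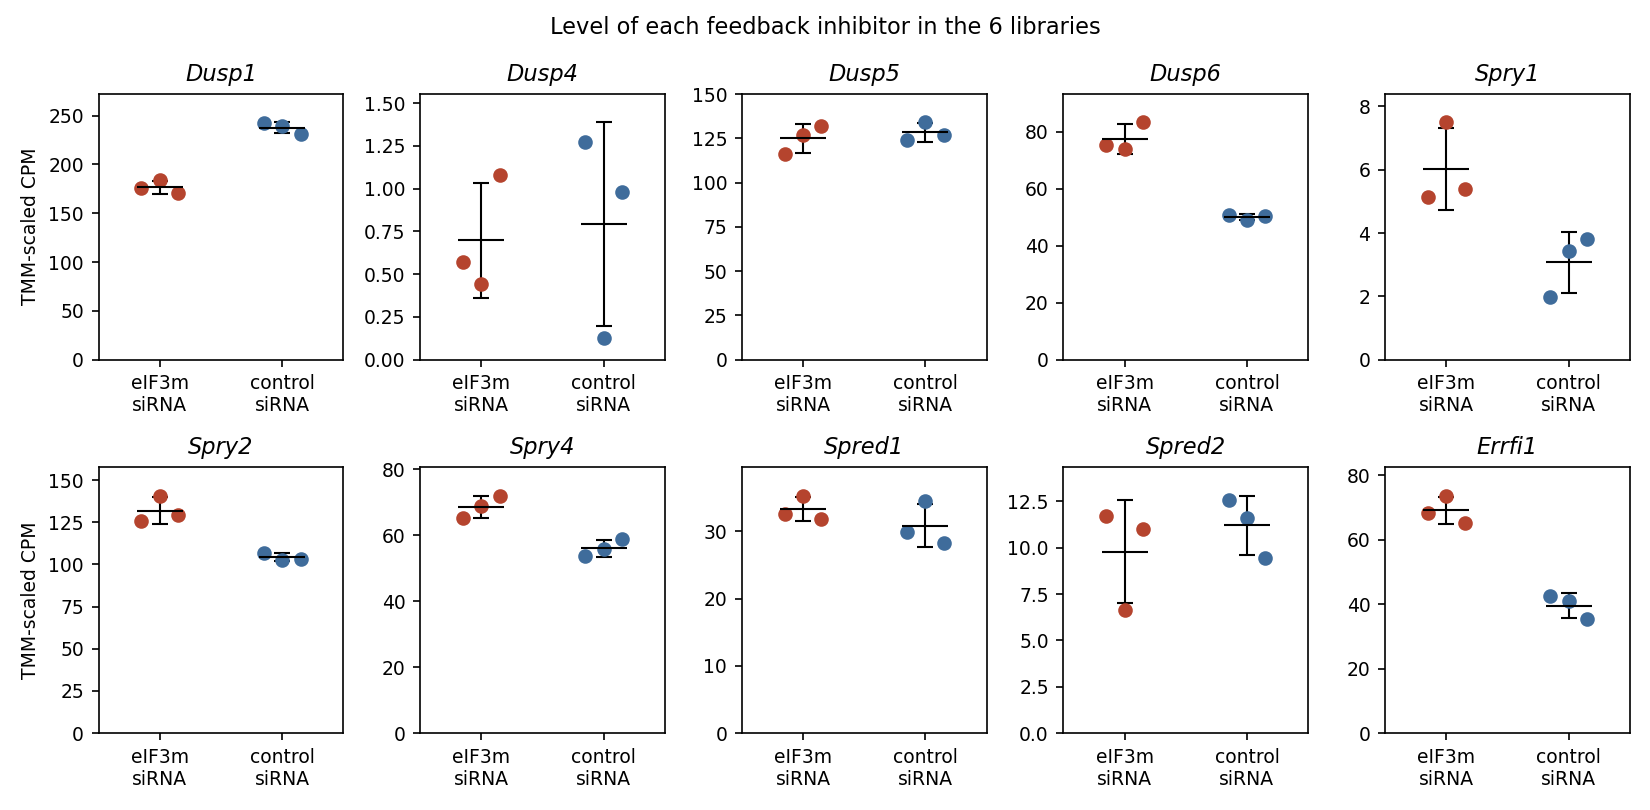
TMM-scaled CPM (vertical axis, from 0, a scale of its own for each gene) of the 10 feedback inhibitors in 3 eIF3m siRNA and 3 control siRNA libraries; points are libraries, the long bar is the mean and the whiskers are the SD. Errfi1, Dusp6, Spry1, Spry2 and Spry4 lie higher with eIF3m siRNA, Dusp1 lies lower, and the groups overlap for Dusp4, Dusp5, Spred1 and Spred2.

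At the receptor, Errfi1 was higher with eIF3m siRNA. Its level was 68.4, 73.7 and 65.3 CPM in eIF3m siRNA replicates 1, 2 and 3, against 42.4, 41.0 and 35.3 CPM in control siRNA replicates 1, 2 and 3. Every eIF3m siRNA library lay above every control library, and the lowest of them exceeded the highest control by more than the SD of either group. The means were 69.1 ± 4.30 CPM with eIF3m siRNA and 39.6 ± 3.78 CPM with control siRNA (SD, n = 3 each). This was a fitted 1.73-fold increase, with a log2 fold change of 0.79 ± 0.08 (SE; adjusted p = 9.64e-07 in edgeR). Its 95% interval ran from 1.54-fold to 1.93-fold. Errfi1, also called Mig6, blocks the EGF receptor family after the receptor has been activated.

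The Sprouty genes Spry1, Spry2 and Spry4 were each higher with eIF3m siRNA, by different amounts and with unequal support. Spry2, which is phosphorylated once a receptor is active, stood at 126, 141 and 129 CPM with eIF3m siRNA, against 107, 102 and 103 CPM with control siRNA. The means were 132 ± 8.02 CPM with eIF3m siRNA and 104 ± 2.44 CPM with control siRNA (SD, n = 3 each), a log2 fold change of 0.32 ± 0.05 (SE; adjusted p = 2.25e-04 in edgeR). The groups did not overlap, and the fitted fold change was 1.25.

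Spry4 stood at 65.2, 68.9 and 72.0 CPM with eIF3m siRNA, against 53.8, 55.8 and 58.8 CPM with control siRNA. Its means were 68.7 ± 3.38 CPM with eIF3m siRNA and 56.1 ± 2.51 CPM with control siRNA (SD, n = 3 each), with a log2 fold change of 0.29 ± 0.06 (SE; adjusted p = 0.00200 in edgeR). The groups did not overlap, and the gap between them was smaller than for Errfi1. The count of Spry4 was 0.519, 0.489 and 0.558 times that of Spry2 in eIF3m siRNA replicates 1, 2 and 3, against 0.502, 0.544 and 0.568 times in control siRNA replicates 1, 2 and 3. This within-library ratio does not depend on scaling, and it overlapped between the groups.

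Spry1 was scarce. Its counts were 54, 17 and 45 with eIF3m siRNA and 14, 27 and 31 with control siRNA, or 5.15, 7.51 and 5.398 CPM with eIF3m siRNA against 1.98, 3.45 and 3.81 CPM with control siRNA. The log2 fold change was 0.87 ± 0.29 (SE; adjusted p = 0.0255 in edgeR), a 1.83-fold increase with a 95% interval from 1.20-fold to 2.79-fold. The groups did not overlap, but counting error alone was wide: the 17 counts of eIF3m siRNA replicate 2 allowed 4.37 to 12.02 CPM and the 14 counts of control siRNA replicate 1 allowed 1.08 to 3.32 CPM (exact Poisson 95% intervals). The call was lost without control siRNA replicate 1 (0.65, adjusted p = 0.105), without eIF3m siRNA replicate 2 (0.76, adjusted p = 0.0635) and without eIF3m siRNA replicate 3 (0.92, adjusted p = 0.0534). Over all its alternatives the adjusted p of Spry1 in edgeR, DESeq2 or limma-voom ranged from 0.00938 to 0.356.

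The Spred genes were not called. Spred1, which also acts on Ras through neurofibromin, stood at 32.6, 35.3 and 31.9 CPM with eIF3m siRNA, against 29.8, 34.5 and 28.3 CPM with control siRNA. The groups overlapped, with a log2 fold change of 0.09 ± 0.10 (SE; adjusted p = 0.499 in edgeR). The 95% interval of 0.923-fold to 1.23-fold lies below the fitted fold changes of Spry1, Errfi1 and Dusp6, but holds that of Spry4 (1.22). It overlaps the intervals of Spry1 (1.20-fold to 2.79-fold) and Spry2 (1.15-fold to 1.36-fold). Differences between members were not tested. Spred2, its close relative, stood at 11.7, 6.62 and 11.04 CPM with eIF3m siRNA, against 12.6, 11.6 and 9.46 CPM with control siRNA. The low value was that of eIF3m siRNA replicate 2, the smallest library, in which Spred2 had 15 counts. The log2 fold change was -0.08 ± 0.19 (SE; adjusted p = 0.755 in edgeR), and its interval from 0.717-fold to 1.24-fold leaves room for moderate changes either way.

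**Figure D2:**
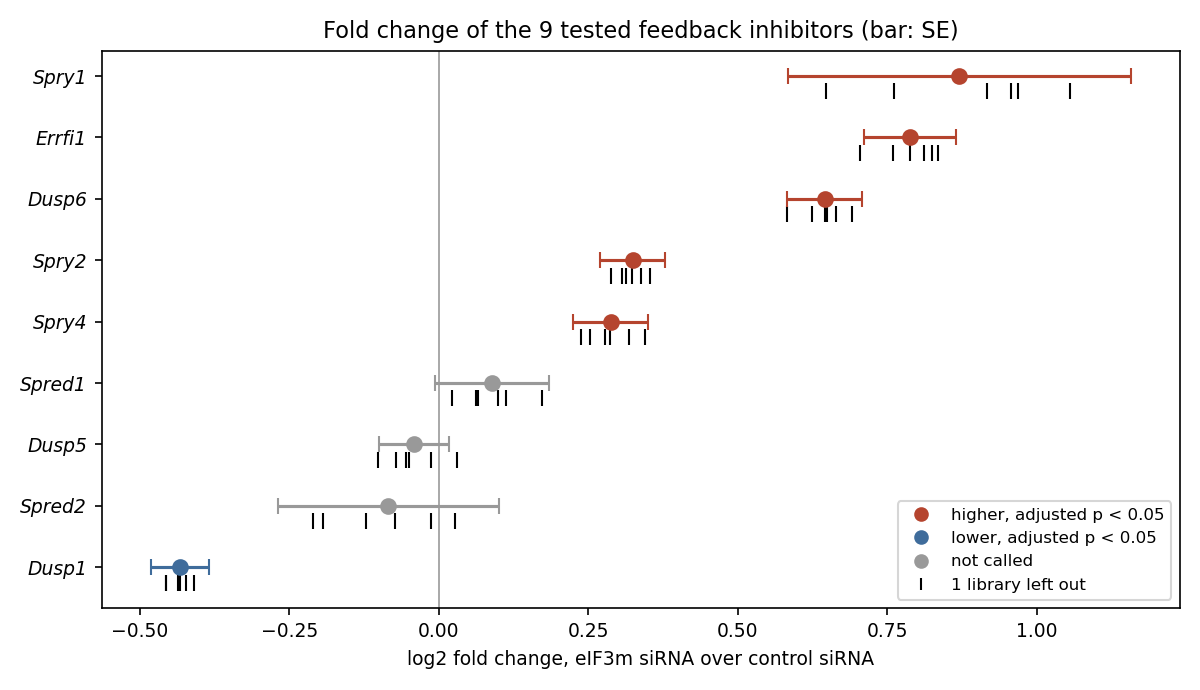
Log2 fold change of the 9 tested members (horizontal axis; eIF3m siRNA over control siRNA), with points for the fit of all 6 libraries, whiskers for its SE, and black ticks for the 6 fits that each leave out 1 library. Errfi1 at 0.79, Dusp6 at 0.65 and Dusp1 at -0.43 keep their side of 0 in every tick; the ticks of Dusp5 and Spred2 fall on both sides.

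The phosphatases did not move together. Dusp6, a cytoplasmic phosphatase that acts on ERK, was higher with eIF3m siRNA, at 75.3, 73.7 and 83.4 CPM there, against 50.6, 48.9 and 50.4 CPM with control siRNA. All 3 eIF3m siRNA libraries lay well above the control libraries. The control libraries were closer together (SD 0.953 CPM) than the SD of 2.56 CPM that counting error alone would give. The means were 77.5 ± 5.16 CPM with eIF3m siRNA and 49.97 ± 0.953 CPM with control siRNA (SD, n = 3 each), a fitted 1.56-fold increase with a log2 fold change of 0.65 ± 0.06 (SE; adjusted p = 8.90e-07 in edgeR).

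Dusp1, a nuclear phosphatase that acts mainly on p38 and JNK and also on ERK, was the member that fell. It stood at 176, 184 and 171 CPM with eIF3m siRNA, against 243, 239 and 231 CPM with control siRNA. Every eIF3m siRNA library lay below every control library. The means were 177 ± 6.63 CPM with eIF3m siRNA and 238 ± 5.70 CPM with control siRNA (SD, n = 3 each), a change of -25.9% with a log2 fold change of -0.43 ± 0.05 (SE; adjusted p = 4.90e-06 in edgeR). The 95% interval ran from 0.689-fold to 0.796-fold.

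Dusp5, a nuclear phosphatase specific to ERK, was not called. It stood at 116, 127 and 132 CPM with eIF3m siRNA, against 124, 134 and 127 CPM with control siRNA, so the groups overlapped. Its log2 fold change was -0.04 ± 0.06 (SE; adjusted p = 0.613 in edgeR), with a 95% interval of 0.890-fold to 1.06-fold. That interval lies above the fold change of Dusp1 and below those of Dusp6 and Errfi1. Dusp4, another nuclear phosphatase, was near the limit of detection, with 6, 1 and 9 counts with eIF3m siRNA against 9, 1 and 8 counts with control siRNA. These are 0.572, 0.442 and 1.08 CPM with eIF3m siRNA against 1.27, 0.128 and 0.983 CPM with control siRNA. For scale, 3 counts equal 0.286 CPM in the largest library and 1.32 CPM in the smallest. Dusp4 did not pass the filter on low counts, so a difference between its groups was not tested.

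The ratio of Dusp6 to Dusp1 was also taken within each library, where scaling between libraries plays no part. The pairs given were picked after the values of the members had been seen, so the ratios carry no test. Dusp6 had 0.429, 0.401 and 0.489 times the count of Dusp1 in eIF3m siRNA replicates 1, 2 and 3, against 0.209, 0.204 and 0.218 times in control siRNA replicates 1, 2 and 3. On the log2 scale the mean ratio was -1.19 ± 0.14 with eIF3m siRNA and -2.25 ± 0.05 with control siRNA (SD, n = 3 each), a difference of 1.06. The ratio was higher in every eIF3m siRNA library than in any control library. Counts are not per transcript length, so only the change of a ratio between groups is read, not its size. Dusp6 against Dusp5 shifted by 0.67 on the log2 scale and Dusp5 against Dusp1 by 0.39, and neither overlapped between the groups.

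**Figure D3:**
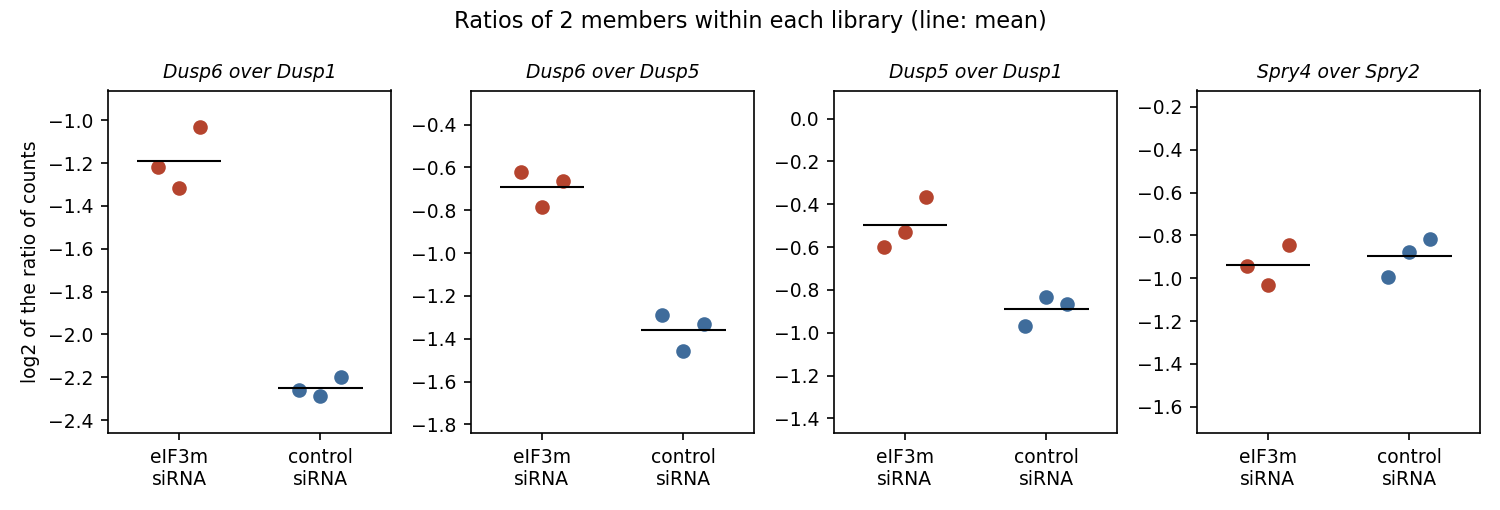
Log2 ratio of the counts of 2 members in the same library (vertical axis, the same span in each panel), for 3 eIF3m siRNA and 3 control siRNA libraries, with a line at the group mean. Dusp6 over Dusp1 averages -1.19 with eIF3m siRNA and -2.25 with control siRNA, while Spry4 over Spry2 overlaps between the groups.

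Without eIF3m siRNA replicate 1, the library with the high blood and endothelial transcripts, the same number of members was called, 5 as higher and 1 as lower. The log2 fold changes were then 0.79 for Errfi1, 0.69 for Dusp6, 0.97 for Spry1, 0.35 for Spry2, 0.34 for Spry4 and -0.44 for Dusp1. Dusp5 moved to 0.031 and still did not pass. Summed markers of several other cell types differed between the groups without overlap, while those of red cells, endothelium and leukocytes overlapped between the groups. The summed level of 7 smooth muscle and pericyte markers was 3625 to 3815 CPM with eIF3m siRNA and 5628 to 5767 CPM with control siRNA, with 1 called higher and 5 lower of 6 tested. That of 9 skeletal myoblast markers was 72.6 to 80.4 CPM with eIF3m siRNA and 115 to 124 CPM with control siRNA, with 0 higher and 5 lower of 6 tested. That of 8 fibroblast markers was 16028 to 16847 CPM with eIF3m siRNA and 14783 to 15284 CPM with control siRNA. Of 6 tested, 4 were higher and 1 lower. Col1a1 was the most abundant, at 13028 to 13338 CPM with eIF3m siRNA and 11914 to 12082 CPM with control siRNA. Dcn was high in 1 library, at 55.4, 2.21 and 1.80 CPM in eIF3m siRNA replicates 1, 2 and 3. With control siRNA it was at 0.983 to 1.28 CPM. The 8 cardiomyocyte markers, of which Tnnt2 was the most abundant, summed to 152 to 172 CPM with eIF3m siRNA and 386 to 399 CPM with control siRNA, with 0 higher and 2 lower of 2 tested. The 6 leukocyte markers summed to 49.1, 20.8 and 22.8 CPM in eIF3m siRNA replicates 1, 2 and 3, against 28.7 to 31.3 CPM with control siRNA. Of 3 tested, 1 was higher and 1 lower. The high sum was that of replicate 1, the library that stood apart in blood transcripts. None of the listed markers was at 0 in all libraries, and the endothelial markers Cdh5, Emcn and Kdr were at 0 in the control libraries. The part of cell composition in the members' values was not tested, and in bulk RNA fewer cells of a type and less RNA per cell cannot be told apart.

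The other phosphatases of the family counted 1 higher and 1 lower of 6 tested out of 9 listed, beside 38.7% of all genes called. Dusp8, a phosphatase of p38 and JNK, was the one called higher. It stood at 51.2, 58.7 and 51.2 CPM with eIF3m siRNA, against 23.8, 28.2 and 27.0 CPM with control siRNA, a log2 fold change of 1.00 ± 0.09 (SE; adjusted p = 3.22e-07 in edgeR). This was above the change of every tested member, among which Spry1 was highest at 0.87, although the difference was not tested. Dusp3 was at -0.20 (adjusted p = 0.0205 in edgeR) and missed the threshold with DESeq2, under several other settings and without control siRNA replicate 3 or eIF3m siRNA replicate 1. Dusp7, like Dusp6 a cytoplasmic phosphatase of ERK, was at 0.15 ± 0.07 and was not called (adjusted p = 0.0979 in edgeR), but passed with no scaling factors (0.30), with upper-quartile scaling (0.22), under the stricter filter (0.18) and without eIF3m siRNA replicate 3 (0.23).

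Other brakes on Ras and receptor kinases counted 3 higher and 4 lower of 18 tested, a share of calls near the 38.7% of all genes. Socs3, a feedback inhibitor of cytokine receptors, was at 42.1 ± 1.22 CPM with eIF3m siRNA and 60.5 ± 1.87 CPM with control siRNA (log2 fold change -0.53, adjusted p = 9.85e-06 in edgeR). Its relative Socs2 was at 1.07 (adjusted p = 0.00162 in edgeR). The Ras GTPase-activating proteins Rasal2 (0.32) and Rasa2 (0.46) were called higher, but both calls were lost with DESeq2 and without control siRNA replicate 1. Rasal2 also missed the threshold without control siRNA replicate 3 or eIF3m siRNA replicate 3, and Rasa2 without control siRNA replicate 2. Spry3, Spred3 and Nf1, the neurofibromin gene, were not called.

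The kinase chains that these inhibitors restrain had calls at a share near that of all genes, 38.7%. In the chain from receptor adaptors to ERK, 3 were higher and 5 lower of 24 tested. Rras was at -0.45, Map2k2 (MEK2) at -0.32 and Map2k1 (MEK1) at -0.19 on the log2 scale, while Mras, a Ras relative, was at 0.24; all 4 were called. The ERK gene Mapk3 (-0.07, adjusted p = 0.305 in edgeR) was not. In the p38, JNK and ERK5 chains 4 were higher and 1 lower of 13 tested. Map2k3, 1 of those called higher, was at 4.29, 3.09 and 14.6 CPM in eIF3m siRNA replicates 1, 2 and 3. Its control siRNA libraries were at 3.11 to 3.93 CPM, so the groups overlapped. The JNK genes Mapk9 (0.31) and Mapk8 (0.35) and the upstream kinase Map3k4 (0.38) were higher, and Map2k5, the kinase of ERK5, was lower (-0.55). The p38 gene Mapk14 was not called.

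**Figure D4:**
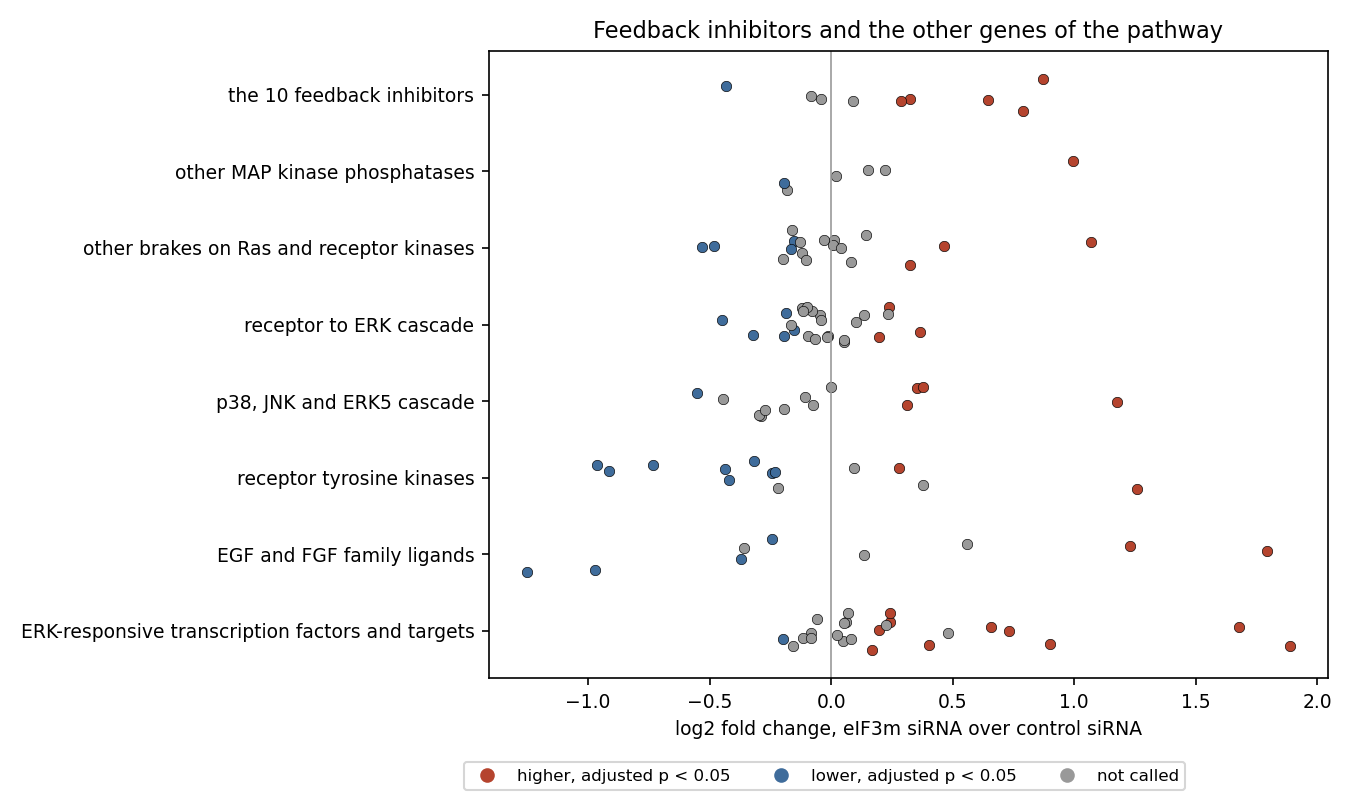
Log2 fold change (horizontal axis; eIF3m siRNA over control siRNA) of the tested feedback inhibitors and of the tested genes of 7 further lists of the pathway, 1 point per gene, spread vertically for legibility; red points are called higher, blue points lower and grey points not called. Among receptor tyrosine kinases 8 points are called lower and 2 higher, and among ERK-responsive genes 10 are called higher and 1 lower.

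Upstream of the inhibitors, receptor tyrosine kinases counted 2 higher and 8 lower of 13 tested, beside 17.4% higher and 21.2% lower over all genes. Pdgfrb, the PDGF receptor of mesenchymal cells (-0.96), Flt1, a VEGF receptor (-0.91), and Ddr1, a collagen receptor (-0.74), were lower. Erbb3, a neuregulin receptor of the EGF receptor family, was higher (1.26). Erbb2, of the same family, was lower (-0.32, adjusted p = 0.0426 in edgeR). Egfr, the best known partner of Errfi1, was barely detected, at 1.72, 0.442 and 0.840 CPM with eIF3m siRNA against 0.283, 1.66 and 1.23 CPM with control siRNA. Among EGF and FGF family ligands 2 were higher and 4 lower of 9 tested, beside the same 17.4% and 21.2%. Fgf1 was at -1.25, Fgf7 at -0.37 and Tgfa at -0.24. Areg was at 1.79, at a low level of 3.24, 1.77 and 2.28 CPM with eIF3m siRNA against 1.27, 0.638 and 0.369 CPM with control siRNA, and its call was lost without eIF3m siRNA replicate 1 (1.502, adjusted p = 0.0528 in edgeR). The Tgfa call was lost without that library too (-0.19, adjusted p = 0.0670 in edgeR).

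Downstream, ERK-responsive transcription factors and targets counted 10 higher and 1 lower of 24 tested, beside 17.4% and 21.2% of all genes. Egr1, a zinc-finger factor induced within minutes of ERK activation, was at 60.9, 56.1 and 65.3 CPM with eIF3m siRNA, against 23.5, 15.7 and 18.9 CPM with control siRNA. Its log2 fold change was 1.68 ± 0.11 (SE; adjusted p = 1.46e-08 in edgeR). Ier2 (0.66), Fos (0.73) and Fosl2 (0.40) were also called higher. Not every ERK-linked gene did so. Etv4 (0.05) and Etv5 (-0.06), Ets factors that are often reported beside Dusp6 and the Sprouty genes, were not called (adjusted p = 0.561 and 0.498 in edgeR), although Etv4 passed with no scaling factors (0.19). Not called either were Fosl1, Phlda1 and Myc. Ccnd1, cyclin D1, was the member of that list that fell (-0.20, adjusted p = 5.41e-05 in edgeR), a call lost with no scaling factors (-0.056).

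The genes whose levels over the 6 libraries followed those of Dusp6 most closely, out of 10483 with a mean of at least 5 CPM, were Nop58, Sgo2 and Srsf7, with Pearson r of 0.998, 0.998 and 0.997 on log2 CPM. For Dusp1 they were Mat1a, Psmd2 and Bmper, with r of 0.999 each. These are descriptions: the correlation includes the difference between the groups, and 32 genes exceeded 0.99 for Dusp6 and 144 for Dusp1.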

How the data were processed

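RNA sequencing counts of 6 rat libraries were compared, 3 with eIF3m siRNA and 3 with control siRNA, with group and replicate taken from the sample titles. The authors deposited 1 raw count per gene and library. The submitters' processing notes name HISAT2 2.2.1, Trimmomatic 0.40, limma, featureCounts and DESeq2, without their roles, and the build rn6. How strand and multi-mapping reads were treated, and which annotation was used, is not given in the sources used here. In each file 27 symbols turned into dates were left out (0.203% to 0.216% of counts).

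The test was that of edgeR 4.0.16 (R 4.3.3): filterByExpr (minimum count 10, minimum total 15), TMM scaling, quasi-likelihood F-test without covariate, and Benjamini-Hochberg adjustment over all 12724 genes tested, two-sided, threshold 0.05. Log2 fold changes are eIF3m siRNA over control siRNA with the SE of the fit, and levels are CPM on TMM-scaled totals. Intervals on counts cover counting error only. Any 2 libraries of a group differed by more than sampling noise. The edgeR step was tested on simulated counts.

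The members and lists were chosen with earlier results of these data known. Genes named are the 10 members, Eif3m, the called genes of lowest p in each list (4 at most), and the 3 most similar genes for Dusp6 and Dusp1; other genes of the lists were named after their values were seen. Alternatives were other scaling, DESeq2 1.42.0, limma-voom (limma 3.58.1), robust dispersion, other filters, thinned libraries, a replicate block and leaving out each library. Start regions were matched by symbol in a RefSeq table of GRCr8.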

Additional observations from a re-analysis of the deposited data

How the results depend on the processing

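Errfi1, Dusp6, Spry2, Spry4 and Dusp1 kept their direction and their call under each of the 16 other settings, with log2 fold changes of 0.70 to 0.93, 0.55 to 0.79, 0.29 to 0.47, 0.24 to 0.43 and -0.46 to -0.29. With each library left out in turn, Spry1 ranged from 0.65 to 1.06, Dusp5 from -0.10 to 0.031 (without eIF3m siRNA replicate 1) and Spred2 from -0.21 to 0.027 (without eIF3m siRNA replicate 2). Spry1 was not tested under the stricter filter, and was at 0.44 (not called) in the first thinning, where all libraries were reduced to the smallest total, and in which Spred1 was called at 0.44. In 20 further thinning draws, added after that one was seen, Spry1 passed the filter in 16 and was called in 11, Spred1 in 0, Spry2 in 19 and Spry4 in 15, and Dusp1, Dusp6 and Errfi1 in 20. Dusp5 was at 0.026 with upper-quartile scaling and at 0.10 with no scaling factors, and Spred2 at 0.059 with no scaling factors. Log2 fold changes of all genes rose by a median of 0.068 with upper-quartile scaling and of 0.14 with no scaling factors. The cause of the differences on thinning or on leaving out a library was not tested. Of pathway genes near 0, Mapk3 turned to 0.078 and Etv5 to 0.086 with no scaling factors; with upper-quartile scaling Mapk3 was at 0.0019 and Etv5 at 0.0098. Etv4 was at -0.016 with the first thinning and ranged from -0.015 to 0.089 without eIF3m siRNA replicate 3 and 2. In that thinning the calls of Dusp3, Rasa2, Map2k1, Map2k2, Map2k5, Mapk8, Fgf7 and Tgfa were lost, and with no scaling factors those of Dusp3, Map2k1, Tgfa and Ccnd1.

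No scaling factors moved the median of all genes by 0.14 on the log2 scale. Calls were then 71.0% higher, with 4126 higher and 1684 lower, and 58.6% higher with upper-quartile scaling, against 45.1% in the reported fit, where 2220 were higher and 2700 lower. The members' counts stayed at 5 higher and 1 lower under both. Thinning gave 3123 calls over all genes, 1364 higher and 1759 lower, against 4920.

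Same-numbered libraries of the 2 groups did not deviate together (Pearson r 0.030, -0.0054 and 0.0077 across genes). These deviations from the group means include counting noise, so they cannot show whether the numbers pair the libraries. With a replicate block 4755 genes and 6 members were called.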
